A study of Mus musculus with 6 samples.

Results

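The YTH family of N6-methyladenosine readers comprises 5 genes in the mouse, Ythdc1, Ythdc2, Ythdf1, Ythdf2 and Ythdf3. Their surroundings were examined for open chromatin in mouse embryonic stem cells of 3 Alkbh5 genotypes. All deposited ATAC-seq peaks that overlapped a fixed window around each gene were taken. These amounted to 56 and 59 peaks in the del-cIDR libraries, 60 and 50 in the KO libraries and 67 and 72 in the WT libraries. Peaks of the 6 libraries that shared at least 1 bp were merged into 95 regions, of 259376 mouse regions in all. The windows (GRCm39) span chromosome 5 from 86910000 to 87020000 for Ythdc1, chromosome 18 from 44920000 to 45070000 for Ythdc2, chromosome 2 from 180500000 to 180610000 for Ythdf1, chromosome 4 from 131880000 to 131990000 for Ythdf2 and chromosome 3 from 16190000 to 16320000 for Ythdf3. Neighbouring genes can lie inside a window, and a peak there is described by its position and not assigned to a promoter, exon or intron.

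ATAC-seq marks open DNA by the insertions of a transposase. The cells were E14TG2a, an embryonic stem cell line, kept in medium of 15% serum and 1000 U/ml LIF to which inhibitors of MEK (PD0325901, 1 µM) and GSK3 (CHIR99021, 3 µM) were added, and each sample was spiked with 10 µl of nuclei. The 3 genotypes have 2 libraries each: Alkbh5 del-cIDR, named as a deletion of cIDR; Alkbh5 KO, a knockout; and WT. The labels do not spell out cIDR, and the title of the series speaks of intrinsically disordered regions. Whether each mutant is 1 clone is not given in the labels, nor whether replicates came from different cultures. Their spread may therefore be technical, and a difference of genotype cannot be told apart from one between lines.

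N6-methyladenosine (m6A) is a modified base of RNA that is written by a methyltransferase complex around METTL3 and METTL14, removed by the demethylases ALKBH5 and FTO, and bound by reader proteins. The readers of the YTH family hold the methyl group in an aromatic cage of their YTH domain. YTHDC1 is the nuclear member, with roles in splicing, RNA export and, in mouse embryonic stem cells, the silencing of retrotransposon RNA. YTHDC2 is an RNA helicase known for its requirement in meiosis of germ cells. YTHDF1, YTHDF2 and YTHDF3 are close paralogs in the cytoplasm, and YTHDF2 is known for recruiting the CCR4-NOT deadenylase that shortens RNA tails.

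Promoter sequences of 3 of the 5 genes matched the RefSeq promoter table (build GRCm38.p6), namely Ythdc1, Ythdf1 and Ythdf2, while Ythdc2 and Ythdf3 had no sequence to show. The 250 bases before the transcription start are shown to convey the base composition of these starts, 5′ to 3′ on the strand of the gene, with capitals marking exact matches to the motifs searched.
Ythdc1 (chromosome 5, plus strand): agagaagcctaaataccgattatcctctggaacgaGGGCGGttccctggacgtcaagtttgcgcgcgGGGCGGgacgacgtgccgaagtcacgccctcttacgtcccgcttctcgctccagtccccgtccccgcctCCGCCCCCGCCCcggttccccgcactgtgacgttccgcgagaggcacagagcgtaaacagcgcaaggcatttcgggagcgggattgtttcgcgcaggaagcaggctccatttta
Ythdf1 (chromosome 2, minus strand): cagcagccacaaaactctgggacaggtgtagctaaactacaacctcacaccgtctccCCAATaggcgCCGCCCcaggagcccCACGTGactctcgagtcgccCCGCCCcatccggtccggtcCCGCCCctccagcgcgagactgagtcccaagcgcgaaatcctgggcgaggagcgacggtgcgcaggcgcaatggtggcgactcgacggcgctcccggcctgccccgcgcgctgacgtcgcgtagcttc
Ythdf2 (chromosome 4, minus strand): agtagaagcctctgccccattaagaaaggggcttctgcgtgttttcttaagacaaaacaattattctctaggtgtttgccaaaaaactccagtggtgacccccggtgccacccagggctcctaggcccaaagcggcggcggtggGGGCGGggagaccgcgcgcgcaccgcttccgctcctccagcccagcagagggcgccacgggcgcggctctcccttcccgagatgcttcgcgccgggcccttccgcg

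All 3 sequences were rich in G, C and CpG. The GC content was 63.2% for Ythdc1, 68.4% for Ythdf1 and 64.0% for Ythdf2, against a median of 52.4% over the 32851 promoters of the table. The observed over expected ratio of CpG was 1.21 for Ythdc1, 1.05 for Ythdf1 and 0.863 for Ythdf2, against a median of 0.373, and 99.5%, 96.4% and 85.7% of promoters had a ratio at or below these values. The GC box GGGCGG, a motif of Sp and Klf factors, was found in all 3 on either strand, with 4 matches in Ythdc1, 3 in Ythdf1 and 1 in Ythdf2. It occurred in 32.7% of all promoters. Ythdf1 also held CCAAT, the NF-Y motif, which 33.8% of promoters hold, and the E-box CACGTG, which 6.02% hold. No exact match on either strand was found for the ETS motif CCGGAAG (6.91% of promoters), the NRF1 motif GCGCATGCG (1.45%), the YY1 motif AAGATGGC (1.56%), the CRE motif TGACGTCA (1.55%), the ESRRB motif TCAAGGTCA (0.387%), the KLF motif CCACACCC (3.20%) or the TATA motif TATAAA (12.4%). None of the matches overlapped another. Because the peaks are placed on GRCm39 and the table on GRCm38.p6, no peak was matched to these sequences by position.

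The lists of mouse peaks held 157931 and 155128 peaks in del-cIDR, 164639 and 150680 in KO and 193905 and 184884 in WT. Relative sequencing depth was estimated as the most common background of each list, in tags, over the width of its narrowest peak. With WT replicate 1 set to 1, it ranged from 0.820 in KO replicate 2 to 1.0957 in KO replicate 1. A summit height is the number of tags piled up at the summit, recovered from the deposited fold and p. Each height was also expressed as log2 of its ratio to a median of the same list. That median was taken over regions called in all 6 libraries on the 16 autosomes other than 6, 8 and 11, and the result is called the relative height. None of the 5 windows lies on chromosome 6, 8, 11 or X. On the 5 chromosomes of the windows, the median difference in relative height was 0.02 to 0.04 log2 between del-cIDR and WT and 0.07 to 0.10 between KO and WT. On chromosomes 6, 8 and 11 the median KO minus WT difference was 0.45, 0.42 and 0.20 log2. Shares and medians given below for all regions include these chromosomes. The Alkbh5 locus and the marker genes of stem cells and other cell types were not analysed here, so the labels were not checked by them.

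The Ythdf1 and Ythdf2 windows held the most peaks and the Ythdc2 window the fewest, although it is the longest, at 150 kb. Of the 95 regions, 26 lay in the Ythdf1 window, 26 in that of Ythdf2, 18 in that of Ythdf3, 17 in that of Ythdc1 and 8 in that of Ythdc2. Regions called in all 6 libraries numbered 34 (35.8%), against 38.3% of all mouse regions, and 26 (27.4%) were called in 1 library only, against 25.2%. Thus both shares lay near those of the whole set. The genes differed among themselves: 13 of 26 regions were called in all libraries at Ythdf1 and 3 of 18 at Ythdf3, where 8 were called in 1 library only. Regions called in 1 library were low, with a median of 10 tags and at most 24, while those called in all 6 had a median of 46 tags and reached 186.

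Peaks per window were counted in every library. The Ythdc1 window held 10 and 12 peaks in del-cIDR, 11 and 10 in KO and 11 and 12 in WT. Its counts overlapped among the genotypes. The Ythdc2 window held 6 and 6 peaks in del-cIDR, 5 and 3 in KO and 8 and 5 in WT. The Ythdf1 window held 16 and 17 peaks in del-cIDR, 21 and 18 in KO and 20 and 22 in WT. Both del-cIDR libraries were therefore below the other 4 at Ythdf1. At Ythdf2 there were 17 and 18 peaks in del-cIDR, 17 and 11 in KO and 17 and 21 in WT. The low KO value belongs to replicate 2, the library of lowest relative depth, and the part of depth was not tested. For Ythdf3 the counts were 7 and 6 in del-cIDR, 6 and 8 in KO and 11 and 12 in WT, and both WT libraries were above all 4 mutant libraries. Over the 5 windows the means were 57.5 ± 2.12 in del-cIDR, 55.0 ± 7.07 in KO and 69.5 ± 3.54 in WT (SD, n = 2). Both WT libraries were above the 4 others, as were their whole lists, and with equal list lengths the means were 55.0 in del-cIDR, 52.0 in KO and 56.5 in WT. The windows held 0.0355% and 0.0380% of the peaks of the del-cIDR lists, 0.0364% and 0.0332% in KO and 0.0346% and 0.0389% in WT, and these shares overlapped. With 2 libraries against 2, an exact two-sided permutation test cannot give a p below 0.333, so differences are described and not tested.

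**Figure D1:**
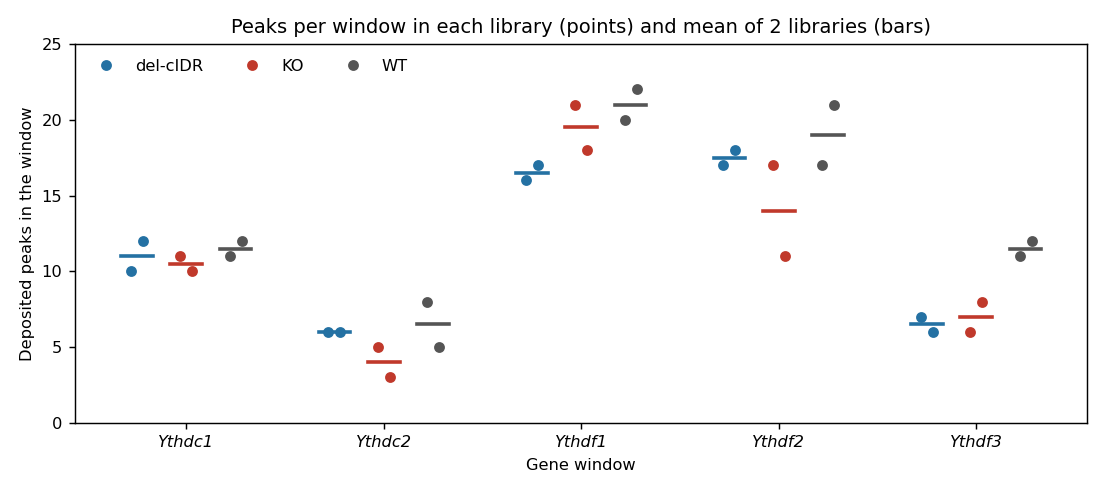
Number of deposited peaks (vertical axis) in each gene window (horizontal axis) for del-cIDR, KO and WT; points are libraries and bars are means of 2 libraries. At Ythdf3 both WT libraries (11 and 12) lie above the 4 mutant libraries (6 to 8), and the whole lists of WT are also longer than those of the mutants.

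In every window at least 1 region ranked near the top of all lists. The within-list percentile of a peak is the share of the mouse peaks of the same list whose deposited fold is at or below its own. Percentiles of lists of different length are given side by side and do not measure a change. The tallest region of each window had percentiles of 93.8 to 99.4 over the 6 libraries, and mean heights ranged from 106 tags at Ythdc2 to 158 at Ythdc1. The median percentile of all peaks in the windows was 55.3 and 60.8 in del-cIDR, 52.3 and 60.0 in KO and 59.1 and 45.3 in WT, so the ordinary peak of these windows was of middling fold.

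**Figure D2:**
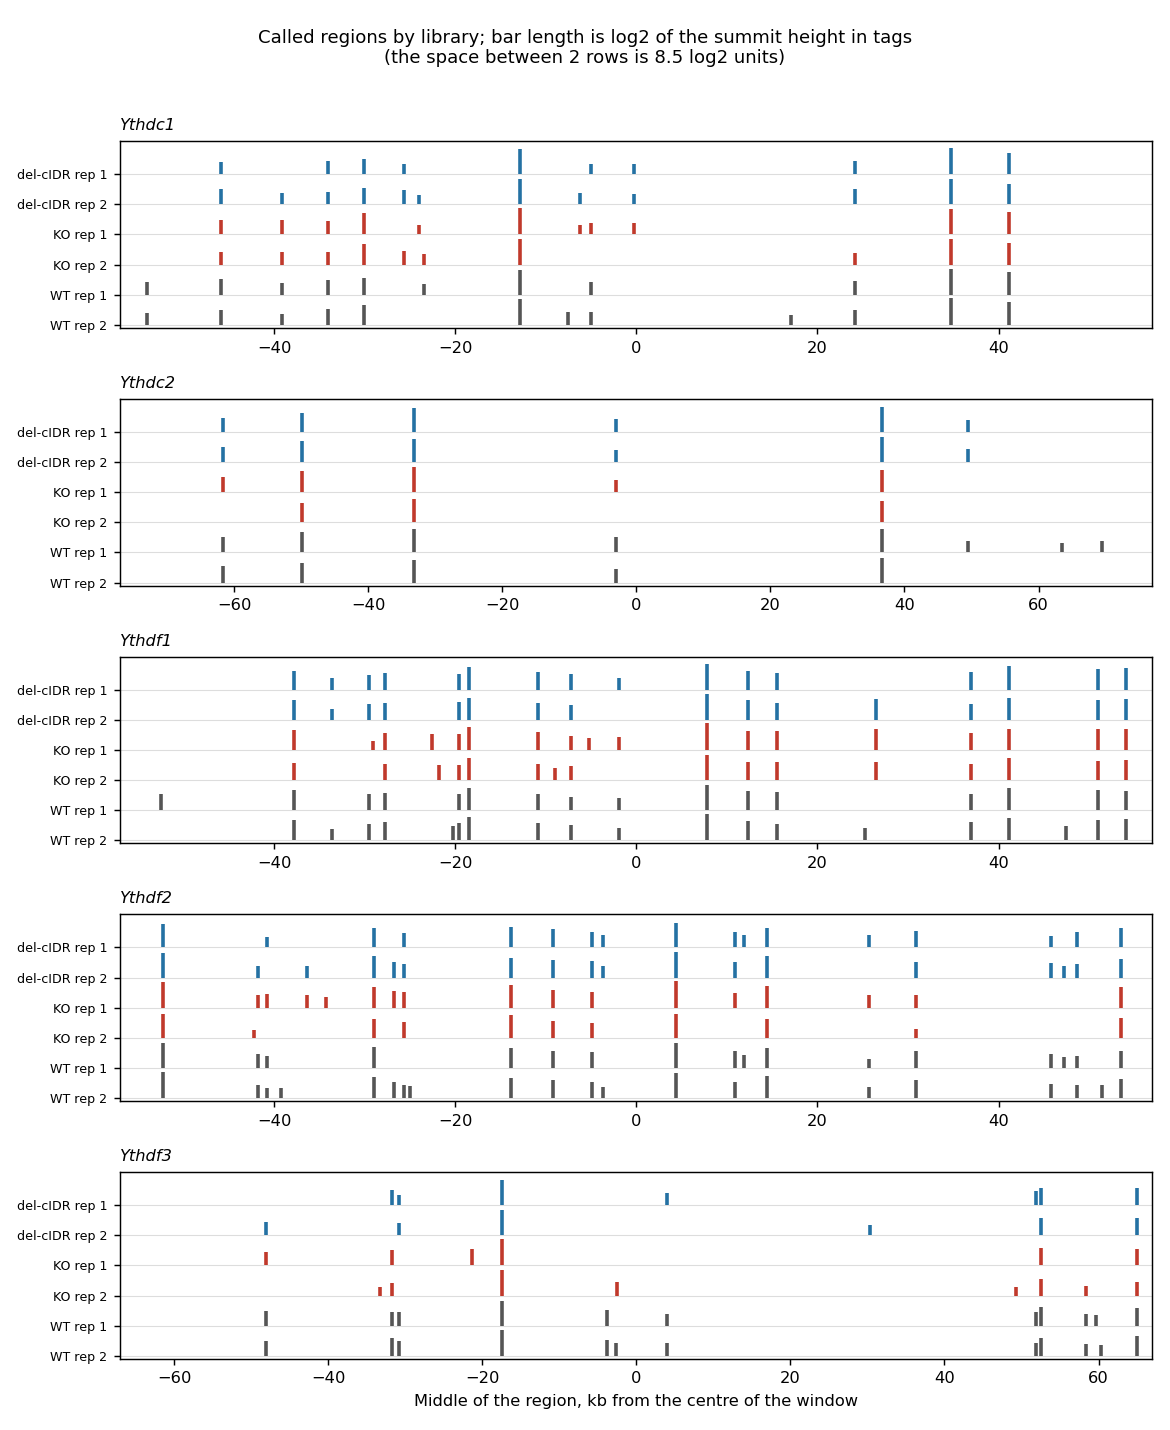
Called regions in the 5 windows for each library (rows, del-cIDR on top, then KO and WT); the horizontal axis is the distance of the middle of a region from the window centre in kb, and bar length is log2 of the summit height in tags. The tall bars recur in all 6 rows, and the short ones are often missing from 1 or more rows.

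At Ythdc1, which encodes the nuclear reader, 2 regions stood well above the rest. The tallest one (chromosome 5, 86999475 to 87000111) had 168 and 138 tags in del-cIDR, 161 and 147 in KO and 150 and 186 in WT. Its percentiles were 99.1 and 98.1 in del-cIDR, 98.1 and 99.4 in KO and 98.5 and 99.4 in WT, and the genotypes overlapped in relative height. By rank of height among the regions called in all libraries of a list, both KO libraries were below both WT libraries, with a difference of -1.52 percentile points. The next, from 86951735 to 86952678, held 146 and 133 tags in del-cIDR, 177 and 155 in KO and 129 and 150 in WT, with percentiles of 96.4 to 99.0. On the relative scale it stood at 2.15 ± 0.06 log2 in del-cIDR, 2.53 ± 0.15 in KO and 2.04 ± 0.03 in WT (SD, n = 2). It stood 0.49 log2 higher in KO than in WT without overlap of the libraries, and 0.26 higher with the deposited fold. Tall regions in general were higher in KO on this scale: the median KO minus WT difference was 0.32 log2 over the 10198 regions with a mean of at least 100 tags, and 0.10 over the 89018 lower ones. Both classes include regions on chromosomes 6, 8 and 11. RefSeq places Tmprss11e and Ugt2b34 as the protein-coding genes on either side of Ythdc1.

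At Ythdc2, which encodes the helicase, the tallest region lay on chromosome 18 from 45031231 to 45032013. It held 127 and 126 tags in del-cIDR, 83 and 61 in KO and 107 and 129 in WT, and both KO libraries were below the other 4. Its relative height was 2.01 ± 0.02 log2 in del-cIDR, 1.31 ± 0.03 in KO and 1.79 ± 0.07 in WT (SD, n = 2). The KO minus WT difference was -0.48 log2, and -0.03 with the deposited fold in place of the height, while regions of at least 100 tags had a median of 0.32 above. A KO minus WT difference in height at or below this value was found in 10.7% of all regions called in all libraries. Percentiles of this region were 98.5 and 98.7 in del-cIDR, 95.6 and 94.6 in KO and 97.9 and 97.3 in WT. The region next in height, from 44961298 to 44962273, ran the other way, with 105 and 99 tags in del-cIDR, 139 and 95 in KO and 104 and 87 in WT. KO was there 0.51 log2 above WT, at 2.00 ± 0.11 in KO against 1.49 ± 0.30 in WT (SD, n = 2), a difference of 0.25 with the deposited fold and of 0.30 to 0.73 with 1 library left out. By rank the KO and WT values overlapped. The neighbouring protein-coding genes in RefSeq are Mcc and Kcnn2.

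Among the cytoplasmic readers, Ythdf1 had 1 dominant region, on chromosome 2 from 180562417 to 180563135. It held 162 and 162 tags in del-cIDR, 183 and 125 in KO and 129 and 162 in WT. Its relative height was 2.36 ± 0.03 log2 in del-cIDR, 2.40 ± 0.11 in KO and 2.09 ± 0.11 in WT (SD, n = 2), with del-cIDR 0.27 and KO 0.31 log2 above WT and no overlap. By rank the del-cIDR libraries were still above, while the KO minus WT difference was -0.054 percentile points and the libraries overlapped. Percentiles were 95.1 to 97.7. The next region, from 180536083 to 180536912, held 81 and 75 tags in del-cIDR, 96 and 71 in KO and 79 and 98 in WT, with percentiles of 72.1 to 84.8. The fold of a peak is taken over its local background, and several regions here had many tags and a low fold. One from 180567097 to 180567670 held 39 and 46 tags in del-cIDR, 41 and 32 in KO and 39 and 46 in WT, at mean percentiles of 29.3 in del-cIDR, 22.5 in KO and 37.3 in WT. Bhlhe23 and Birc7 are the protein-coding neighbours of Ythdf1 in RefSeq.

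At Ythdf2, the reader that recruits the deadenylase, the tallest region lay on chromosome 4 from 131938909 to 131939884. It held 122 and 154 tags in del-cIDR, 169 and 114 in KO and 144 and 136 in WT, with percentiles of 95.1 to 98.2. Relative heights were 2.12 ± 0.27 log2 in del-cIDR, 2.27 ± 0.12 in KO and 2.04 ± 0.18 in WT (SD, n = 2), with del-cIDR 0.08 and KO 0.23 above WT. With 1 library left out these differences ranged from -0.11 to 0.27 for del-cIDR and from 0.10 to 0.36 for KO, and by rank they were -0.18 and -0.62 percentile points, so neither direction held on every scale. The next region, at the edge of the window from 131882318 to 131883049, held 107 and 110 tags in del-cIDR, 165 and 111 in KO and 123 and 149 in WT. In relative height both del-cIDR libraries were below both WT libraries there, with a difference of -0.21 log2 (-0.10 with the deposited fold). Both KO libraries were above WT on that scale, by 0.24 log2 (0.13 with the deposited fold), but by rank the KO minus WT difference was -0.58 percentile points and the libraries overlapped. The neighbours are Oprd1 and Gmeb1 in RefSeq, and the edge region was not assigned to a gene.

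Ythdf3 had a single tall region, on chromosome 3 from 16237113 to 16238085. It held 130 and 129 tags in del-cIDR, 168 and 136 in KO and 125 and 153 in WT, with percentiles of 93.8 to 97.3. Relative heights were 2.04 ± 0.02 log2 in del-cIDR, 2.40 ± 0.07 in KO and 2.03 ± 0.09 in WT (SD, n = 2). The KO value was 0.37 log2 above WT (0.14 with the deposited fold), near the median of regions of at least 100 tags, and by rank the KO and WT libraries overlapped. The other regions of this window were far lower. The next, from 16307242 to 16307737, had 26 to 38 tags and overlapped between KO and WT and between del-cIDR and WT. Gm5150 and Cypt12 are the neighbours of Ythdf3 in RefSeq.

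**Figure D3:**
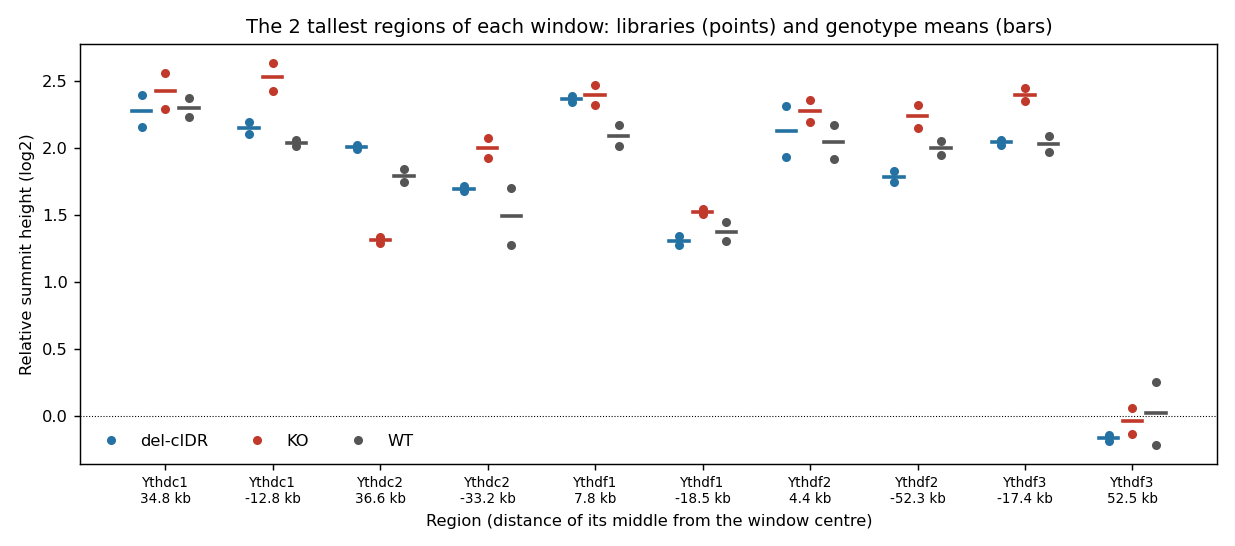
Relative summit height (vertical axis, log2) of the 2 tallest regions of each window (horizontal axis, with the distance of the middle from the window centre) in del-cIDR, KO and WT; points are libraries and bars are means of 2 libraries. The tallest region of the Ythdc2 window is lower in both KO libraries than in the other 4, while the tallest of Ythdf3 is higher in both. By rank, the KO libraries overlap those of WT at this Ythdf3 region and stay above those of del-cIDR.

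The first comparison asks whether the del-cIDR allele goes with other open regions at these genes than WT. Of the 84 window regions called in any of these 4 libraries, 2 were present in del-cIDR (both lists) and absent from WT (both lists) (2.38%, against 1.02% of 236360 regions genome-wide). Both lay at Ythdc1. The region from 86939207 to 86939519 held 8 and 17 tags in del-cIDR and was also called in KO replicate 2, with 14. The other, from 86964565 to 86964885, held 8 and 7 tags in del-cIDR and 10 in KO replicate 1. Called regions of the windows had heights down to 5 tags. The reverse pattern, both WT lists and no del-cIDR list, was shown by 3 regions (3.57%, against 5.85%), 1 at Ythdc1 and 2 at Ythdf3. One of those at Ythdf3, from 16313085 to 16313541, held 10 tags in each WT library and 7 in KO replicate 2. With 1 library less, fewer calls are required. The count of 2 became 7 when del-cIDR replicate 1 was left out and 5 when WT replicate 2 was. The count of 3 became 10 or 6 on leaving out del-cIDR replicate 1 or 2, and 13 or 8 on leaving out WT replicate 1 or 2.

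In relative height, the 34 regions called in all libraries had a median difference of 0.03 log2 between del-cIDR and WT, against 0.01 over all 99216 such regions. It was 0.14 without del-cIDR replicate 1 and -0.034 without del-cIDR replicate 2. Both del-cIDR libraries were above both WT libraries in 11 of the 34 (32.4%, against 22.9% of all regions) and below in 7 (20.6%, against 21.3%). Of the 11, 6 were among the 13 regions at Ythdf1. With the deposited fold in place of height, 7 were above and 6 below, and by rank 10 were above and 9 below. A difference of at least 0.5 log2 without overlap was found in no region above WT (3.93% of all regions) and in 2 below (5.88%, against 6.12%). Both were at Ythdc1 and neighbour each other. From 86930694 to 86931149 the heights were 13 and 11 tags in del-cIDR and 19 and 24 in WT, a difference of -0.73 log2 (-0.45 with the deposited fold). From 86934731 to 86935199 they were 18 and 24 tags in del-cIDR and 29 and 46 in WT, a difference of -0.71 log2 that ranged from -0.95 to -0.46 when 1 library was left out. Of all regions, 1.80% and 2.08% had del-cIDR minus WT values as low.

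The second comparison sets KO against WT. Of 94 window regions, 1 was present in both KO lists and absent from both WT lists (1.06%, against 2.00% of 245235 regions genome-wide), and 8 showed the reverse (8.51%, against 7.63%). The counts thus lay near the background. Of the 8, 4 were at Ythdf3, 2 at Ythdf2, 1 at Ythdf1 and 1 at Ythdc1. On leaving out KO replicate 1 the count of 8 became 17, and it became 20 or 15 on leaving out WT replicate 1 or 2. The count of 1 became 8 or 10 on leaving out KO replicate 1 or 2, and 2 on leaving out WT replicate 2. The 2 libraries of KO shared 56.7% of the 67 window regions called in either, against 67.4% of all mouse regions. The shares were 72.7% in del-cIDR and 71.4% in WT, against 70.2% and 69.4% of all mouse regions.

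The region called in KO and not in WT lay at Ythdf1, on chromosome 2 from 180581372 to 180581640. It held 56 and 36 tags in KO, at percentiles of 97.8 and 93.6, and 54 tags in del-cIDR replicate 2, at percentile 99.0. It was called neither in del-cIDR replicate 1 nor in the WT libraries. The replicates of del-cIDR thus differed there, at a height far over that of the lowest calls. Among the regions missing in KO, that at Ythdf1 from 180525337 to 180525652 was the highest, with 19 and 22 tags in del-cIDR, no call in KO and 25 and 24 tags in WT. At Ythdf2 the neighbouring regions from 131980678 to 131980894 and from 131983564 to 131983847 were likewise called in del-cIDR and WT and not in KO. The first of them held 9 and 16 tags in del-cIDR and 14 and 15 in WT. The second held 21 and 15 tags in del-cIDR and 10 and 12 in WT.

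Ythdf3 had the most regions missing in KO, 4 of its 18. From 16224073 to 16224276 the heights were 7 and 11 tags in del-cIDR and 15 and 17 in WT, with no call in KO. The region from 16251116 to 16251316 was called in WT only, with 20 and 22 tags at percentiles of 18.4 and 22.8. From 16258847 to 16259176, del-cIDR replicate 1 held 10 tags and the WT libraries held 9 and 13. From 16306816 to 16307035, there were 15 tags in del-cIDR replicate 1 and 15 and 12 in WT. Over all windows, 0 of 95 regions were called in all 4 mutant libraries and in no WT library (0.194% genome-wide), and 2 were called in both WT libraries and no mutant library (2.11%, against 2.65%). Besides the one at Ythdf3, WT alone had the region at Ythdc1 from 86910839 to 86911065, with 11 tags in each library. This count of 2 became 12 or 6 on leaving out WT replicate 1 or 2, and 4 on leaving out del-cIDR replicate 1. Both mutants are compared with the same WT libraries, so these overlaps are not separate results.

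In relative height, KO was above WT without overlap in 13 of 34 regions (38.2%, against 40.6% of all regions) and below in 6 (17.6%, against 20.6%). The split depended on the scale, with 9 above and 10 below by deposited fold and 7 above and 10 below by rank. The median difference was 0.09 log2 in the windows and 0.13 over all regions, and with scaling on all chromosomes it was 0.04 in the windows and 0.08 over all regions. Without KO replicate 2 the median in the windows was 0.05. Differences of at least 0.5 log2 without overlap were found in 5 regions above WT (14.7%, against 16.7%) and 2 below (5.88%, against 9.88%). Both shares were below those of all regions, which include chromosomes 6, 8 and 11. KO minus WT medians were higher on these chromosomes, and their part in either share was not tested. The single regions that follow were chosen for the size of their difference after the values were seen.

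**Figure D4:**
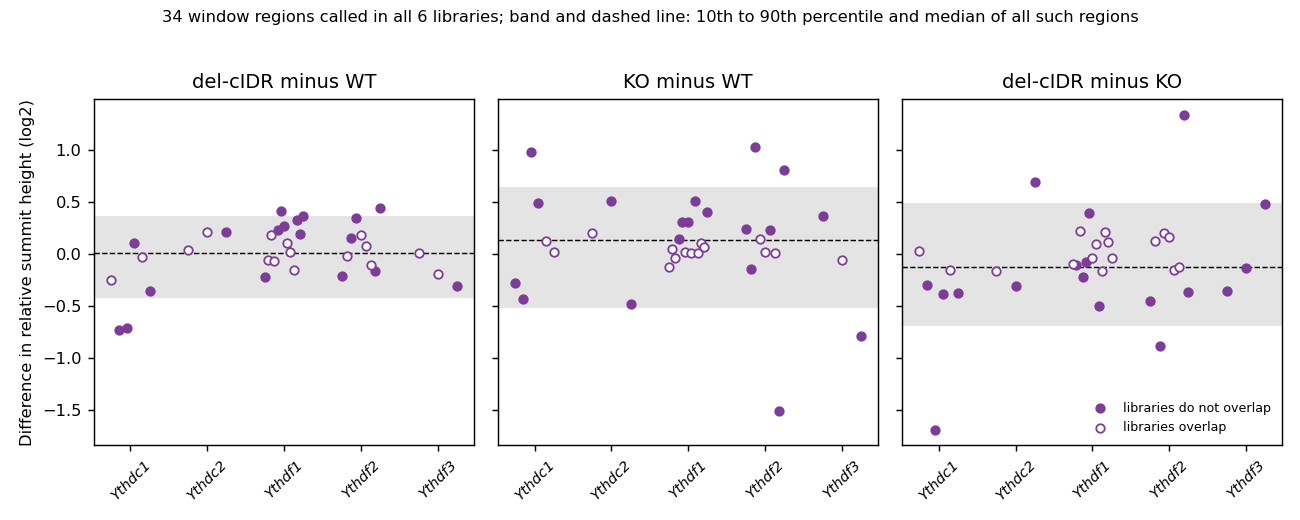
Difference in relative summit height (vertical axis, log2) for the 34 window regions called in all libraries, by gene (horizontal axis), for del-cIDR minus WT, KO minus WT and del-cIDR minus KO; filled points are regions whose libraries do not overlap, the band is the 10th to 90th percentile and the dashed line the median of all 99216 such regions. Most points lie inside the band, and those farthest from it belong to Ythdc1 and Ythdf2.

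At Ythdf2, 3 regions differed between KO and WT by over 0.5 log2, in both directions. One of them, chromosome 4 from 131920712 to 131921501, had 85 and 82 tags in KO and 45 and 52 in WT. The relative heights were 1.54 ± 0.25 log2 in KO and 0.51 ± 0.03 in WT (SD, n = 2), a difference of 1.03 that 98.4% of all regions did not exceed. From 131987833 to 131989143 it was 60 and 44 tags in KO and 30 and 40 in WT, a difference of 0.81 log2. From 131965538 to 131966222 the KO libraries were low, with 12 and 6 tags against 26 and 31 in WT. The difference there was -1.50 log2, ranging from -1.80 to -1.20 with 1 library left out, and 0.18% of all regions had a value as low. With the deposited fold its difference was -1.35 log2, while that of the first region was 0.58 and that of the second 0.68.

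At Ythdc1 the region from 86934731 to 86935199, which was lower in del-cIDR than in WT, was higher in KO. It held 64 and 58 tags in KO and 29 and 46 in WT, a difference of 0.98 log2 that was 0.54 with the deposited fold and 0.73 to 1.23 with 1 library left out. The region beside it, from 86930694 to 86931149, was lower in KO than in WT, as it was in del-cIDR. There the heights were 15 and 12 tags in KO and 19 and 24 in WT, a difference of -0.43 log2 without overlap. The deposited folds were 4.98 and 4.54 in KO, 6.43 and 5.36 in del-cIDR and 8.29 and 9.10 in WT. KO was thus lowest by fold, while del-cIDR was lowest in relative height. At Ythdf1 the region from 180570160 to 180570994 held 38 and 33 tags in KO and 33 and 26 in WT, a difference of 0.51 log2 (0.26 to 0.77 with 1 library left out), and its libraries overlapped with the deposited fold. At Ythdf3 the region from 16319753 to 16320315, which crosses the edge of the window, held 23 and 15 tags in KO and 32 and 45 in WT, a difference of -0.79 log2.

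**Figure D5:**
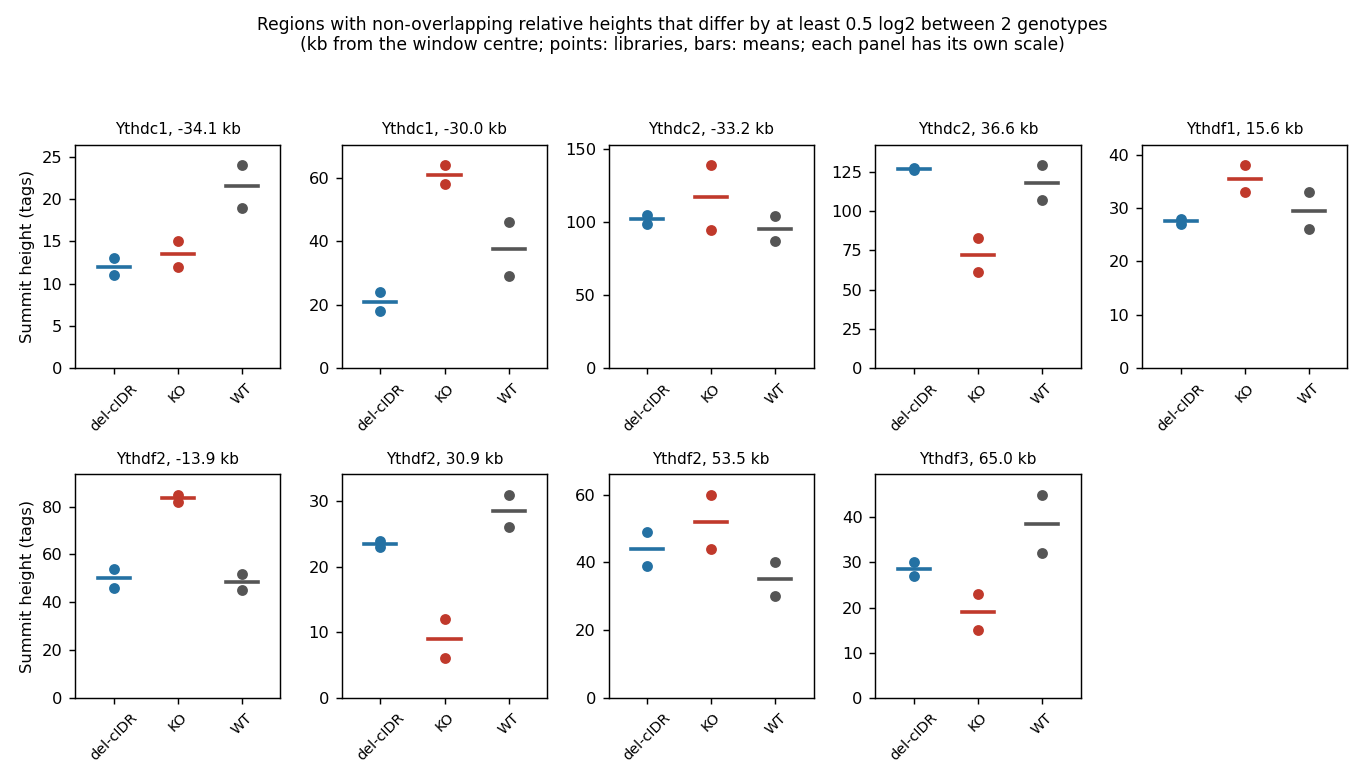
Summit height in tags (vertical axis, from 0, with a scale for each panel) in del-cIDR, KO and WT for the 9 regions whose relative heights differed by at least 0.5 log2 between 2 genotypes without overlap; points are libraries and bars are means of 2 libraries. At 30.9 kb in the Ythdf2 window both KO libraries (12 and 6 tags) lie below the other 4 (23 to 31 tags).

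The third comparison sets del-cIDR against KO. Of 79 window regions, 7 were present in both del-cIDR lists and absent from both KO lists (8.86%, against 4.23% of 220108 regions genome-wide), and 0 showed the reverse (4.12% genome-wide). The 7 comprised 3 at Ythdf2, 2 at Ythdf1, 1 at Ythdc2 and 1 at Ythdf3. Of these, 4 were also called in both WT libraries and are given above. The remaining 3 had low heights: 11 and 14 tags in del-cIDR at Ythdc2 from 45044266 to 45044801, 9 in each del-cIDR library at Ythdf1 from 180521310 to 180521562, and 12 and 10 at Ythdf2 from 131931211 to 131931480. WT replicate 1 also had the first, at 10 tags, and WT replicate 2 had the others, at 10 and 8. Depth was lowest in KO replicate 2 (0.820) and highest in KO replicate 1 (1.0957), and both lists lacked the 7 regions. The part of depth in these counts was not tested. Leaving out KO replicate 1 gave 11 and 8, leaving out KO replicate 2 gave 9 and 5, and the count of 0 became 1 or 2 on leaving out del-cIDR replicate 1 or 2.

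The relative heights of del-cIDR were above those of KO without overlap in 4 of 34 regions (11.8%, against 20.1% of all regions) and below in 14 (41.2%, against 39.5%). By rank the counts were 10 and 9, with the deposited fold 8 and 9, and with scaling on all chromosomes 8 and 11. Differences of at least 0.5 log2 were found in 2 regions above (5.88%, against 9.13%) and 2 below (5.88%, against 17.3%). The shares of all regions include chromosomes 6 and 8, where the median del-cIDR minus KO difference was -0.53 and -0.56 log2. The part of these chromosomes in either share was not tested. The widest gap between the mutants was at Ythdc1 from 86934731 to 86935199, with 18 and 24 tags in del-cIDR and 64 and 58 in KO, a difference of -1.68 log2 (-1.08 with the deposited fold). Of all regions, 0.0937% had a value as low. At Ythdf2 the region from 131920712 to 131921501 held 54 and 46 tags in del-cIDR and 85 and 82 in KO, a difference of -0.88 log2 (-0.52 with the deposited fold). The region from 131965538 to 131966222 held 24 and 23 tags in del-cIDR and 12 and 6 in KO, a difference of 1.34 log2. At Ythdc2 the tallest region was 0.70 log2 higher in del-cIDR than in KO, and 0.20 higher with the deposited fold.

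The window edges were fixed by the rule. The nearest regions outside them lay 286 bp to 60003 bp away and held 6 to 33 tags, and the nearest regions inside held 9 to 165 tags.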

How the data were processed

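Open chromatin was measured by ATAC-seq in 6 libraries, 2 each of del-cIDR, KO and WT, grouped by their titles. The build GRCm39 and the tools MACS2, BWA, fastp, Picard, SAMtools and featureCounts are named per the submitters' processing notes; for versions, settings and any shift of reads to the cut site the entry is: not given in the sources used here. The authors deposited 1 peak list per library. In it the deposited fold is a ratio of summit pileup to local background, each plus 1; significance is deposited as −log10 p and −log10 q, with q at most 0.05; the deposited score is 10 times −log10 q, and the summit is given as an offset. No total read count was used.

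Heights were solved from fold and p, with a background of at least 0.5 tags since lower ones can give another root, and came out whole within 0.1 tags in 100% of 1016776 peaks. Solving, merging and pattern counting were tested on simulated data. Spike-in peaks were left out. They numbered 1199 and 1104 in del-cIDR, 2082 and 1977 in KO and 1679 and 1568 in WT. Relative heights are scaled within each list, so a change shared by all regions would not be seen. Python 3.11.15, pandas 2.3.3, scipy 1.17.1 and matplotlib 3.10.9 were used. The members, motifs and gene lists were chosen with earlier results of these data known. The rule for named regions took the promoter region, the tallest other region called in all libraries, and regions whose calls separated 2 genotypes. Gene starts on GRCm39 were not used here, so the 2 tallest regions of each window replaced the promoter rule, and the lists of related m6A genes, the marker genes and the promoter scaling were not analysed. Regions differing by at least 0.5 log2, and the class of at least 100 tags, were chosen after seeing the data. Alternatives were stricter q, equal list length, merging by summits, other scalings and leaving out each library.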

Additional observations from a re-analysis of the deposited data

How the results depend on the processing

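No paired analysis was possible because the results come from no test, the labels do not say that numbers pair libraries, and the mean of same-numbered differences equals the difference of the means printed. A region missing from a list is not shown to be closed, and the part of depth in the calls was not tested. The tags needed for a call differ with the local background, and some calls of 17 to 23 tags in the Ythdf1 window stood at the bottom of their lists in fold. Mean peaks in the windows were 48.5 in del-cIDR, 44.0 in KO and 55.5 in WT with −log10 q of at least 5, and 55.0, 52.0 and 56.5 with equal list lengths, where WT was closer to the mutants than in the full lists. With −log10 q of at least 5, 2 regions were called in KO and not WT, 1 in del-cIDR and not WT, 1 in KO and not del-cIDR, and 4 in WT alone. With equal list lengths, 2 were called in KO and not WT, 5 in del-cIDR and not WT, and 1 in both mutants and not WT. Merging summits within 150 bp gave 2 in KO and not WT, 5 in WT and not del-cIDR, and 2 in KO and not del-cIDR. With the deposited fold, KO was below WT in 10 regions, del-cIDR above WT in 7, and del-cIDR above and below KO in 8 and 9. By rank, KO was above and below WT in 7 and 10, and del-cIDR above and below KO in 10 and 9. Scaling on all chromosomes put del-cIDR above KO in 8 and moved the median KO minus WT difference to 0.04 log2 in the windows and 0.08 over all regions.

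Leaving out 1 library requires fewer calls. Regions present in del-cIDR and absent from WT then numbered 2 to 7, with 6 to 13 in the reverse pattern. For KO against WT they numbered 1 to 10, reverse 10 to 20, and for del-cIDR against KO 9 to 11, reverse 1 to 8. Both mutants lacked a match in WT in 0 to 1, and WT stood alone in 2 to 12. Regions without overlap numbered 14 to 18 (del-cIDR above WT), 9 to 11 (del-cIDR below WT), 16 to 21 (KO above WT), 6 to 10 (KO below WT), 6 to 10 (del-cIDR above KO) and 16 to 22 (del-cIDR below KO). The median difference in relative height of del-cIDR minus WT ranged from -0.034 to 0.14 log2, that of KO minus WT from 0.05 to 0.14 and that of del-cIDR minus KO from -0.15 to -0.05. The promoter scaling and the window of the gene with 5 kb on each side were not run.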
